A study of Mus musculus with 8 samples.

Results

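The 36 antioxidant defence genes described here encode the enzymes that remove superoxide and peroxides, the thioredoxin and glutathione systems that recharge those enzymes, and the NRF2 regulators that act on many of them. They were chosen by gene symbol, without a rule on measured values but with earlier results of these data known. All 36 were found among the 23284 genes of the count table. RNA sequencing had been done on mouse bone marrow LSK cells, the lineage-negative, c-Kit-positive and Sca-1-positive population that holds blood stem cells and multipotent progenitors. The animals were C57BL/6 mice carrying Hdc-GFP, a green fluorescent reporter for histidine decarboxylase, the enzyme that makes histamine. One group was the LSK fraction sorted as Hdc-GFPhi (4 libraries) and the other the LSK fraction sorted as Hdc-GFPlo (4 libraries), with 2000 sorted cells behind each library. Both groups carry the reporter, no treatment is named for either, and no mice without the reporter are among the samples. The sources used here give neither the age and sex of the mice nor the reporter construct, nor whether animals were pooled. Hdc-GFPhi replicate 4 carries GFP+ in its cell type label where the other libraries of its group carry Hdc-GFPhi, and it is treated as its title says. Whether a replicate is an animal of its own is not stated, and the p-values rest on library-to-library spread that may be technical in part.

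Superoxide, which leaks from respiration and is made by oxidases, is converted by superoxide dismutases to hydrogen peroxide, and catalase, glutathione peroxidases and peroxiredoxins reduce the peroxide. Peroxiredoxins are recharged by thioredoxin and thioredoxin reductase, and glutathione peroxidases by glutathione, which is made from cysteine, glutamate and glycine and reduced by glutathione reductase. The transcription factor NRF2 (Nfe2l2), held low by its adaptor Keap1, raises many of these genes under oxidant stress. Blood stem cells are known for low oxidant levels, and their function is sensitive to a rise in them.

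The libraries held 16726179 to 23051277 counts each, and the 36 genes together took 0.531% to 0.681% of them. The sort genes Kit and Ly6a (Sca-1) and the progenitor marker Cd34 were read in all libraries, at means of 1460, 125 and 1184 CPM (counts scaled to library size, with TMM factors) in Hdc-GFPhi and 1195, 119 and 1316 CPM in Hdc-GFPlo. Hdc itself, the gene behind the reporter, was read at 12 ± 2.12 and 12.1 ± 1.21 CPM (SD, n = 4) and was not called. Of the T cell genes that the sort removes, Cd8a had no count in any library and Cd3e had 7 in all. Lymphoid and B cell markers differed between the fractions. Of 12 such markers 11 fell in Hdc-GFPhi, and their summed level ran from 335.9 to 530.3 CPM there against 1423 to 2207 CPM in Hdc-GFPlo. Of 13 tested monocyte and macrophage markers 4 fell, with summed levels of 154.3 to 199.7 against 248.6 to 312.1 CPM. The markers did not move as 1 set: log2 fold changes (Hdc-GFPhi over Hdc-GFPlo) were above 0 for 5 and below 0 for 8, with a median of -0.07. The 5 above 0 were Cd68, C1qa, C1qb, Cd5l and Spic, none of them called. Among 9 tested erythroid markers none was called by edgeR at an adjusted p under 0.05. At an unadjusted edgeR p under 0.05 there were 2 (22.2%), 1 higher and 1 lower in Hdc-GFPhi, beside 10.9% of all tested genes. The summed level of the erythroid markers ran from 135.2 to 424.7 CPM in Hdc-GFPhi and from 171.4 to 400.6 CPM in Hdc-GFPlo. The part of these cell types in the antioxidant values was not tested. In bulk libraries such as these, fewer cells of a type and less RNA per cell cannot be told apart.

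None of the 34 tested antioxidant genes differed between Hdc-GFPhi and Hdc-GFPlo cells at an adjusted p under 0.05 (edgeR quasi-likelihood test, Benjamini-Hochberg over all 13300 tested genes). Of all tested genes 0.947% passed that threshold (126 genes), 0.241% as higher in Hdc-GFPhi (32) and 0.707% as lower (94). At an unadjusted edgeR p under 0.05 there were 3 of the 34, Nqo1 and Srxn1 higher in Hdc-GFPhi and Prdx3 lower, a share of 8.82% against 10.9% of all tested genes. DESeq2 and voom also called 0 of the 34. The fold changes are log2 values, Hdc-GFPhi over Hdc-GFPlo. They were above 0 for 15 genes and below 0 for 19, with a median of -0.03 and quartiles of -0.10 and 0.11, beside a median of 0.00 and quartiles of -0.14 and 0.14 over all tested genes. No antioxidant gene had a fold change beyond 1 on the log2 scale, the extremes being Slc7a11 at -0.74 and Nqo1 at 0.67.

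The intervals say how large a difference these data leave room for. For 21 of the 34 genes the 95% interval of the log2 fold change lay within 0.5 either way, a 1.41-fold difference, and for 31 of them within 1 either way, a 2-fold difference. Over all tested genes 49.2% and 80.5% did. The 3 genes outside the wider bound were Gpx3, Slc7a11 and Nqo1. The antioxidant genes were also less variable between libraries than the typical gene, with a median biological coefficient of variation of 14.3% against 16.6%, and they were more abundant, with a median log2 CPM of 6.46 against 5.17. The plot of fold changes with their intervals shows how the 9 functional groups lie around 0.

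**Figure D1:**
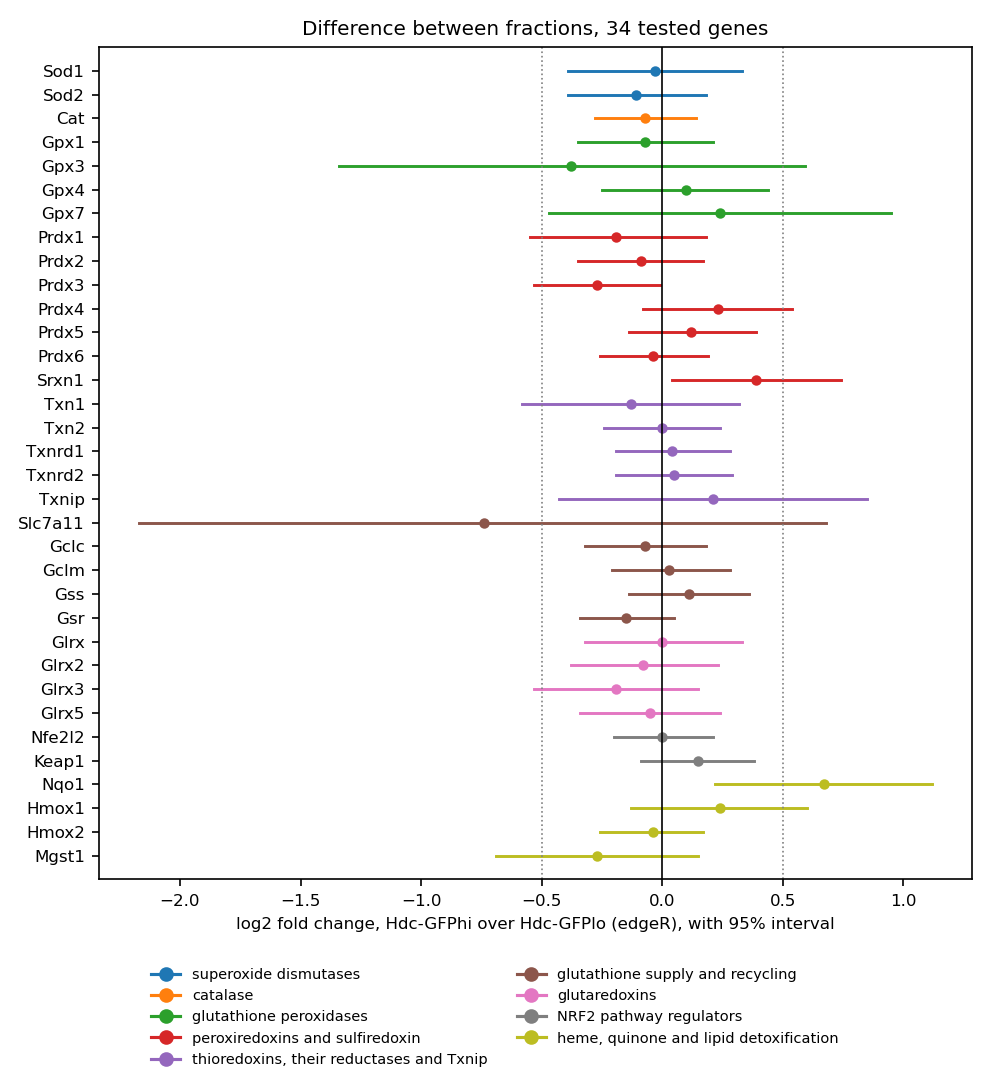
Log2 fold change (Hdc-GFPhi over Hdc-GFPlo, edgeR, x axis) of the 34 tested antioxidant genes (y axis), with 95% intervals as bars, colours for the functional group and dotted lines at 0.5 either way. Only the intervals of Nqo1, Srxn1 and Prdx3 leave out 0, and those of Slc7a11 and Gpx3 are the widest.

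Levels between genes were compared as CPM per kilobase of transcript, averaged over the 8 libraries. Gpx1, the cytosolic glutathione peroxidase, had the highest level at 2049 ± 304 (SD, n = 8) CPM per kilobase, above 99.9% of tested genes. Prdx1, the main cytosolic and nuclear peroxiredoxin, followed at 545 ± 119, and Prdx6, a peroxiredoxin that also acts on phospholipids, at 345 ± 33.4. With the median transcript length, used for these levels, each of these 3 genes was read above the next in every library, since their ranges over libraries do not overlap. Txnip (216 ± 74.0) and Prdx2 (211 ± 26.8) came next and overlapped each other, followed by Txn2 (173 ± 17.1), Cat (141 ± 10.6) and Txn1 (122 ± 33.0). From there the order is a continuum. Of the 35 pairs of neighbours in the order, 5 did not overlap: the first 3 steps from Gpx1 down to Txnip, the step from Txnrd2 (28.3) to Gpx4 (21.1) and the step from Gpx7 (6.07) to Gpx3 (1.5).

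In all, 27 of the 36 genes had a level above the median of tested genes (18.2 CPM per kilobase). The 9 below it were Hmox1 (16.5), Glrx3 (13.1), Nqo1 (7.83), Srxn1 (6.50), Gpx7 (6.07), Gpx3, Gpx8 (0.222), Slc7a11 (0.125) and Sod3 (0.00781). The levels depend on which transcript length is used. With the longest transcript of each gene in place of the median length, Gpx1 stayed first at 1505 CPM per kilobase. Prdx1 then stood at 157, below Prdx6 (242), Txnip (215) and Prdx2 (196), and Gclm stood at 14.9 instead of 83.1. The order below Gpx1 thus holds for the median length only, and the count of 27 was not repeated with the longest.

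**Figure D2:**
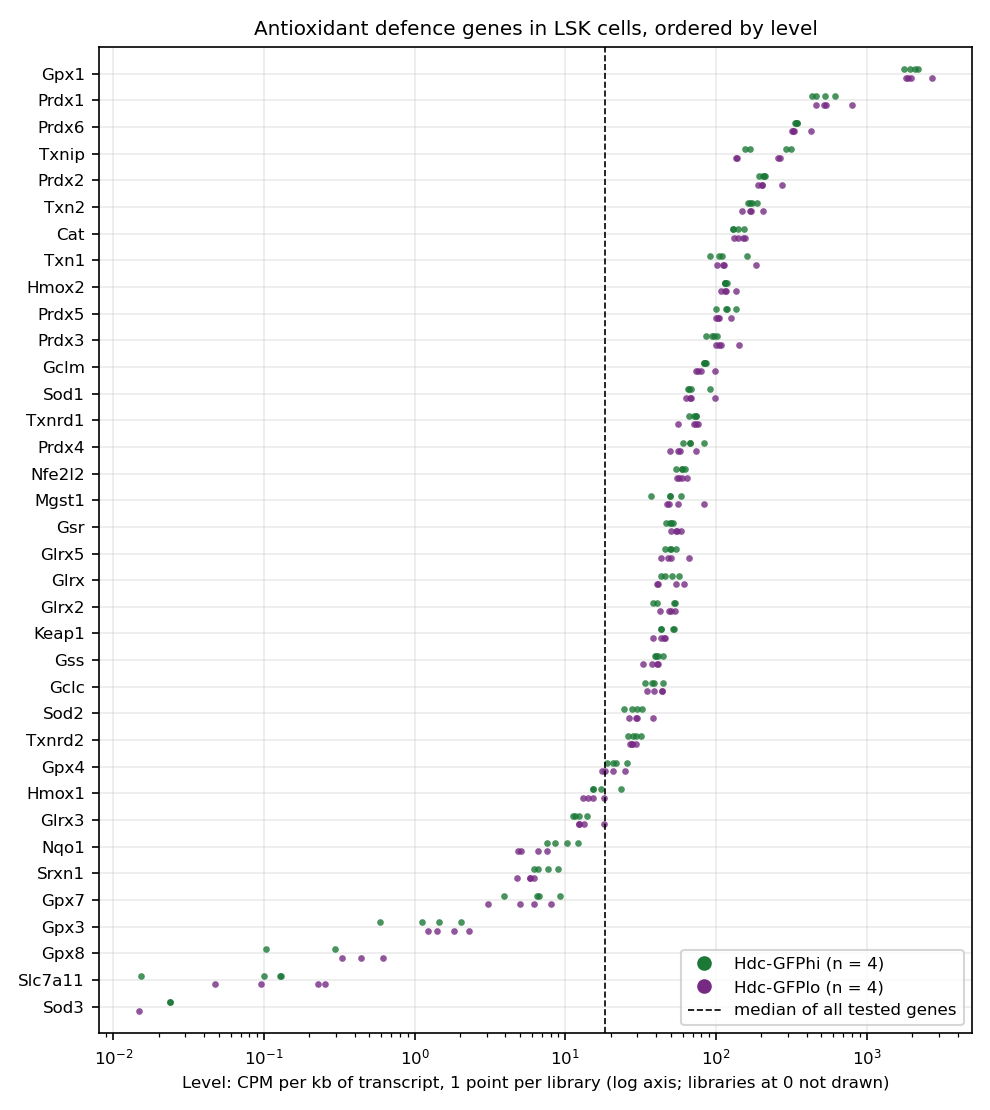
Level in CPM per kilobase of transcript (x axis, log scale) of the 36 antioxidant genes, ordered by their mean (y axis), with 1 point per library for 4 Hdc-GFPhi and 4 Hdc-GFPlo libraries and a dashed line at the median of all tested genes, 18.2. Gpx1 stands alone at the top, Sod3, Slc7a11 and Gpx8 lie below 1, and the points of both fractions run together for most genes.

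Nfe2l2, which encodes NRF2, was read at 153.5, 148.2, 133.2 and 147.4 CPM in Hdc-GFPhi replicates 1 to 4 and at 141.5, 146.2, 157.7 and 135.8 CPM in Hdc-GFPlo replicates 1 to 4. The values are interleaved, and the log2 fold change was 0.00 ± 0.09 (SE; 95% interval -0.20 to 0.21). Keap1, the adaptor that hands NRF2 to a ubiquitin ligase for degradation, was read at 135.3 to 166.1 CPM in Hdc-GFPhi and at 119.4 to 144.5 CPM in Hdc-GFPlo. Its log2 fold change was 0.15 ± 0.11 (-0.09 to 0.38), with overlapping groups. Since NRF2 is controlled largely at the protein level, the RNA of Nfe2l2 and Keap1 does not measure its activity.

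NRF2 binds the antioxidant response element, whose core was searched here as TGACNNNGC on both strands of the RefSeq promoter windows (GRCm38.p6, 250 bases before to 50 after the gene start). Windows were found for 31 of the 36 genes, all but Sod3, Hmox1, Prdx6, Gsr and Gclc. The core was present in 7 of the 31 (22.6%), namely Gclm, Mgst1, Nfe2l2, Prdx1, Sod1, Srxn1 and Txnrd1, and in 14.0% of all 27025 genes with a window. The upstream matches are shown for 6 of these genes, so that the letters behind this count can be seen. Each is read 5′ to 3′ on the gene's strand with the core in capitals, and capitals that begin with GC are the core on the opposite strand.
Gclm (chr3:122245408-122245446): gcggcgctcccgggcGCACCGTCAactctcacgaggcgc
Prdx1 (chr4:116685451-116685489): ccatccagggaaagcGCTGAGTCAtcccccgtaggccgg
Txnrd1 (chr10:82859099-82859137): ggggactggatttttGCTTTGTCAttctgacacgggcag
Mgst1 (chr6:138140456-138140494): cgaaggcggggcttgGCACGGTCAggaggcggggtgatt
Sod1 (chr16:90220691-90220729): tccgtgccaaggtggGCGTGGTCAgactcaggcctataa
Nfe2l2 (chr2:75704880-75704913): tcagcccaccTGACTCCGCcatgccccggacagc
The genes of the + strand are Gclm, Prdx1, Txnrd1, Mgst1 and Sod1, and Nfe2l2 lies on the - strand. A match to these letters is a description and not evidence of binding. The fold changes of the 7 genes with the core ran from -0.27 (Mgst1) to 0.39 (Srxn1), with Sod1 at -0.03, Nfe2l2 at 0.00, Gclm at 0.03 and Txnrd1 at 0.04, and none was called. The E-box CACGTG, letters read by many helix-loop-helix factors and searched on both strands, was in the windows of 2 members, Glrx2 and Prdx4 (6.45%), beside 8.09% of all genes.

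Nqo1, a quinone reductase and a standard NRF2 target, had the highest fold change of the 34. It was read at 11.7, 13.3, 15.9 and 18.8 CPM in Hdc-GFPhi replicates 1 to 4 and at 7.52, 7.90, 11.8 and 10.3 CPM in Hdc-GFPlo replicates 1 to 4. The groups overlap by 1 pair of libraries, Hdc-GFPlo replicate 3 lying just above Hdc-GFPhi replicate 1. The log2 fold change was 0.67 ± 0.21 (0.22 to 1.12), with means of 14.9 ± 3.10 and 9.38 ± 2.03 CPM (SD, n = 4), and it did not pass the threshold (edgeR adjusted p = 0.2). In both fractions replicates 1 and 2 were lower than replicates 3 and 4. Within replicates 1 and 2 the Hdc-GFPhi values lay above the Hdc-GFPlo values, and the same held within replicates 3 and 4. With that split of the replicates as a covariate, the log2 fold change was 0.68 ± 0.16 (0.34 to 1.02) and passed (edgeR adjusted p = 0.0438). Over all 20 alternative settings the fold change ran from 0.54 to 0.82 and the adjusted p from 0.0438 to 0.511, and the split covariate was the only setting of the 20 that called it. No label names the split as a batch.

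The other detoxifying genes lay closer to 0. Hmox1, the inducible heme oxygenase, was read at 27.0, 36.8, 23.8 and 24.1 CPM in Hdc-GFPhi and at 20.6, 28.2, 22.3 and 23.9 CPM in Hdc-GFPlo. Replicate 2 was the highest of both groups, and the groups overlap (0.24 ± 0.17, -0.13 to 0.60). Hmox2, the constitutive form, was the steadiest of these genes at 122.4 to 126.5 CPM in Hdc-GFPhi and 116.4 to 146.3 CPM in Hdc-GFPlo, with a log2 fold change of -0.04 (-0.26 to 0.17). Mgst1, a membrane glutathione transferase that acts on lipid peroxides, was read at 30.7 to 48.5 CPM against 39.0 to 69.0 CPM (-0.27, -0.69 to 0.15), the highest value being that of Hdc-GFPlo replicate 3.

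**Figure D3:**
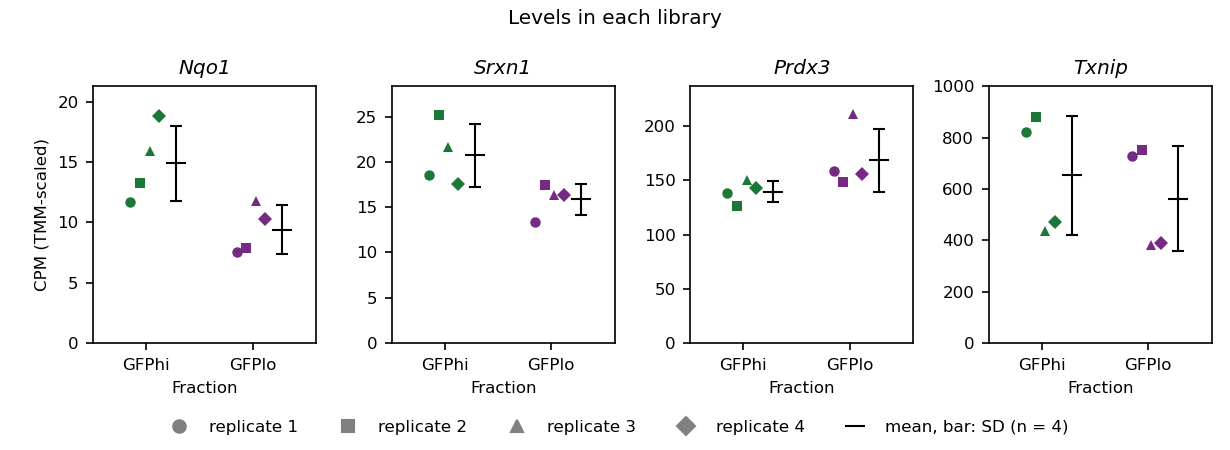
TMM-scaled CPM (y axes, from 0) of Nqo1, Srxn1, Prdx3 and Txnip in each library of the Hdc-GFPhi and Hdc-GFPlo fractions (x axes), with marker shapes for the replicate number and mean ± SD (n = 4) beside each group. Nqo1 overlaps by 1 pair of libraries, Srxn1 does not overlap, Prdx3 is highest in Hdc-GFPlo replicate 3, and Txnip is higher in replicates 1 and 2 of both fractions.

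The superoxide dismutases were close to equal in both fractions. Sod1, the cytosolic copper and zinc enzyme, was read at 42.1, 42.0, 44.0 and 58.4 CPM in Hdc-GFPhi and at 43.2, 40.3, 63.2 and 43.7 CPM in Hdc-GFPlo. In each group 3 libraries were tight and 1 was high, Hdc-GFPhi replicate 4 and Hdc-GFPlo replicate 3. The log2 fold change was -0.03 (-0.39 to 0.33), and that of Sod2, the mitochondrial manganese enzyme, was -0.11 (-0.39 to 0.18) with 77.5 to 101.6 against 82.9 to 119.7 CPM. Sod3, the secreted enzyme, had 4 counts in all Hdc-GFPhi libraries and 1 in all Hdc-GFPlo libraries and was not tested.

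Catalase, which breaks down hydrogen peroxide without a cofactor thiol, was read at 219.5, 259.6, 236.3 and 220.0 CPM in Hdc-GFPhi and at 264.3, 254.5, 224.2 and 236.1 CPM in Hdc-GFPlo, and the groups overlap. Its log2 fold change of -0.07 ± 0.10 had an interval of -0.28 to 0.14. Gpx1 was read at 1398 to 1724 CPM in Hdc-GFPhi and at 1441 to 2143 CPM in Hdc-GFPlo (-0.07, -0.35 to 0.21). Without the highest library, Hdc-GFPlo replicate 3, the other 7 libraries lay between 1398 and 1724 CPM. Gpx4, which reduces lipid peroxides in membranes and guards against ferroptosis, was at 18.1 to 24.7 against 16.7 to 23.8 CPM (0.10, -0.25 to 0.44). Gpx7, an enzyme of the endoplasmic reticulum, was low at 3.16 to 7.42 against 2.48 to 6.48 CPM (0.24, -0.47 to 0.95). Gpx3, the secreted form, was lower still at 0.490 to 1.69 against 1.01 to 1.90 CPM, and its interval of -1.34 to 0.59 leaves the direction unsettled. Gpx8 had 8 counts in all Hdc-GFPhi libraries and 24 in all Hdc-GFPlo libraries and was not tested.

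Among the peroxiredoxins and sulfiredoxin, 2 of 7 (28.6%) had an unadjusted edgeR p under 0.05, beside 10.9% of all tested genes. Of these 1 was lower and 1 higher in Hdc-GFPhi, and neither was called. Prdx3, the peroxiredoxin of mitochondria, was read at 138.7, 126.4, 150 and 143.3 CPM in Hdc-GFPhi and at 158.6, 148.1, 211.1 and 155.6 CPM in Hdc-GFPlo. All but 1 pair of libraries are in order, Hdc-GFPhi replicate 3 lying above Hdc-GFPlo replicate 2. The log2 fold change was -0.27 ± 0.12 (-0.53 to -0.01; edgeR adjusted p = 0.440). Hdc-GFPlo replicate 3 was the farthest from the rest, and without it the fold change was -0.13 ± 0.08 (-0.31 to 0.06).

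Srxn1, sulfiredoxin, which restores peroxiredoxins whose active cysteine has been overoxidized, was the only 1 of the 34 genes whose libraries did not overlap between fractions. It was read at 18.5, 25.2, 21.6 and 17.5 CPM in Hdc-GFPhi and at 13.4, 17.4, 16.3 and 16.3 CPM in Hdc-GFPlo, so that the lowest Hdc-GFPhi library and the highest Hdc-GFPlo library nearly touch. The log2 fold change was 0.39 ± 0.16 (0.04 to 0.74; edgeR adjusted p = 0.392). This 1 gene is 2.94% of the members, while 6.92% of all tested genes did not overlap, 3.38% with Hdc-GFPhi higher and 3.54% with it lower.

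The other peroxiredoxins overlapped between fractions. Prdx4, which works in the endoplasmic reticulum, was read at 58.2, 64.5, 64.7 and 79.5 CPM in Hdc-GFPhi and at 55.1, 53.5, 71.0 and 47.8 CPM in Hdc-GFPlo (0.23 ± 0.14, -0.08 to 0.54). The overlap rests on Hdc-GFPlo replicate 3, the other Hdc-GFPlo libraries lying below every Hdc-GFPhi library. How many of all tested genes stop overlapping when that library is left out was not counted. Without it the fold change of Prdx4 was 0.37 ± 0.12 (0.10 to 0.64), which was not called (edgeR adjusted p = 0.230). Prdx1 and Prdx2, cytosolic enzymes, had fold changes of -0.19 (-0.55 to 0.18) and -0.09 (-0.35 to 0.17). Prdx5, found in mitochondria, peroxisomes and cytosol, was at 0.12 (-0.14 to 0.39). Prdx6 was among the steadiest genes in Hdc-GFPhi, at 555.0 to 578.0 CPM, against 534.3 to 709.5 CPM in Hdc-GFPlo (-0.04, -0.26 to 0.19). Named pseudogenes with no row of their own in the count table exist for Prdx1, Prdx2, Prdx6, Gpx4 and Txn1, so counts of these 5 genes are uncertain where reads fit both copies.

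Txnip, which binds and inhibits thioredoxin and also limits glucose uptake, was the member that followed the replicate number most clearly. It was read at 822.5, 881.4, 436.9 and 471.3 CPM in Hdc-GFPhi replicates 1 to 4 and at 728.4, 752.1, 383.2 and 388.9 CPM in Hdc-GFPlo replicates 1 to 4. Replicates 1 and 2 of both fractions averaged 796 CPM and replicates 3 and 4 averaged 420 CPM, a ratio of 1.90, with no overlap. A ratio farther from 1 was seen in 353 of the 13300 tested genes, among them Slc7a11 with 2.46. Within each replicate number the Hdc-GFPhi library was the higher one. The log2 fold change between fractions was 0.21 ± 0.29 (-0.43 to 0.85), and with the split as a covariate 0.22 ± 0.08 (0.04 to 0.40; edgeR adjusted p = 0.234). Of the 34 members 3 (8.82%) did not overlap between replicates 1 and 2 and replicates 3 and 4, Txnip being higher in the former and Sod1 and Sod2 lower. The same held for 7.86% of all tested genes.

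The thioredoxins and their reductases did not separate the fractions. Txn1, the cytosolic thioredoxin, was read at 109.4, 95.8, 114.8 and 169.2 CPM in Hdc-GFPhi and at 116.6, 106.3, 194.9 and 118.1 CPM in Hdc-GFPlo (-0.13, -0.58 to 0.32). As for Sod1, the high libraries were Hdc-GFPhi replicate 4 and Hdc-GFPlo replicate 3. Txn2, the mitochondrial thioredoxin, had a fold change of 0.00 (-0.24 to 0.24). Txnrd1 and Txnrd2, the cytosolic and mitochondrial selenium-containing reductases, were at 0.04 (-0.19 to 0.28) and 0.05 (-0.19 to 0.29).

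In the glutathione pathway the genes of synthesis and recycling were read at like levels in both fractions. Gclc, the catalytic subunit of the rate-limiting ligase, was at 114.7 to 151.0 CPM in Hdc-GFPhi and 119.5 to 150.6 CPM in Hdc-GFPlo (-0.07, -0.32 to 0.18). Its modifier subunit Gclm varied little in Hdc-GFPhi, at 83.6, 83.1, 84.1 and 86.0 CPM, and was at 74.3, 75.9, 98.9 and 80.2 CPM in Hdc-GFPlo (0.03, -0.21 to 0.28). Hdc-GFPlo replicate 3 lay above all Hdc-GFPhi libraries and the other Hdc-GFPlo libraries lay below them. Gss, which adds glycine in the last step, was at 0.11 (-0.14 to 0.36). Gsr, the reductase that recycles oxidized glutathione, was read at 134.7, 132.6, 137.8 and 124.1 CPM against 148.2, 144.6, 157.4 and 135.2 CPM. Only Hdc-GFPlo replicate 4 lay within the range of Hdc-GFPhi, and the fold change was -0.15 ± 0.09 (-0.34 to 0.05). Slc7a11, the cystine importer, was near the floor with 48 counts in all Hdc-GFPhi and 71 in all Hdc-GFPlo libraries, at 0.0891 to 0.757 against 0.277 to 1.48 CPM. Its fold change of -0.74 ± 0.66 had the widest interval of all members, -2.17 to 0.68.

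The glutaredoxins, which use glutathione to reduce mixed disulfides or to hand on iron-sulfur clusters, all overlapped between fractions. Glrx, the cytosolic form, was at 0.00 (-0.32 to 0.33) and Glrx2, the mitochondrial and nuclear form, at -0.08 (-0.38 to 0.23). Glrx3 and Glrx5, which serve iron-sulfur protein assembly in cytosol and mitochondria, were at -0.19 (-0.53 to 0.15) and -0.05 (-0.34 to 0.24). Glrx3 and Glrx5 were both highest in Hdc-GFPlo replicate 3, at 30.2 and 123.7 CPM.

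Hdc-GFPlo replicate 3 stood apart across the antioxidant genes. It was the highest of the 8 libraries for 17 of the 34 genes (50%), against 23.4% of all tested genes, and the members lay a median of 0.22 log2 CPM above their means over libraries in it, where all tested genes lay at 0.00. Transcript length moved with this. In that library the 4172 tested genes with transcripts of at most 1556 bases lay at 0.19 and the 4171 with transcripts above 2904 bases at -0.20. Of the antioxidant genes 19 are in the shorter class, at 0.25, and 5 in the longer class, at -0.25. With a trend in length and GC content removed from each library, a step added after these values were seen, the members' median in that library was 0.09 and it was the highest library for 15 of 34. Without Hdc-GFPlo replicate 3, fold changes were above 0 for 24 members and below 0 for 10, with a median of 0.08, while 54.1% of all tested genes were above 0. No member was called. At an unadjusted edgeR p under 0.05 there were 3 of the 34 members (8.82%), beside 11.7% of all genes tested in that fit. They were Nqo1 (0.82 ± 0.21, edgeR adjusted p = 0.112), Prdx4 and Srxn1 (0.41 ± 0.17, edgeR adjusted p = 0.376). Leaving out this 1 library turned the sign of the members' median.

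**Figure D4:**
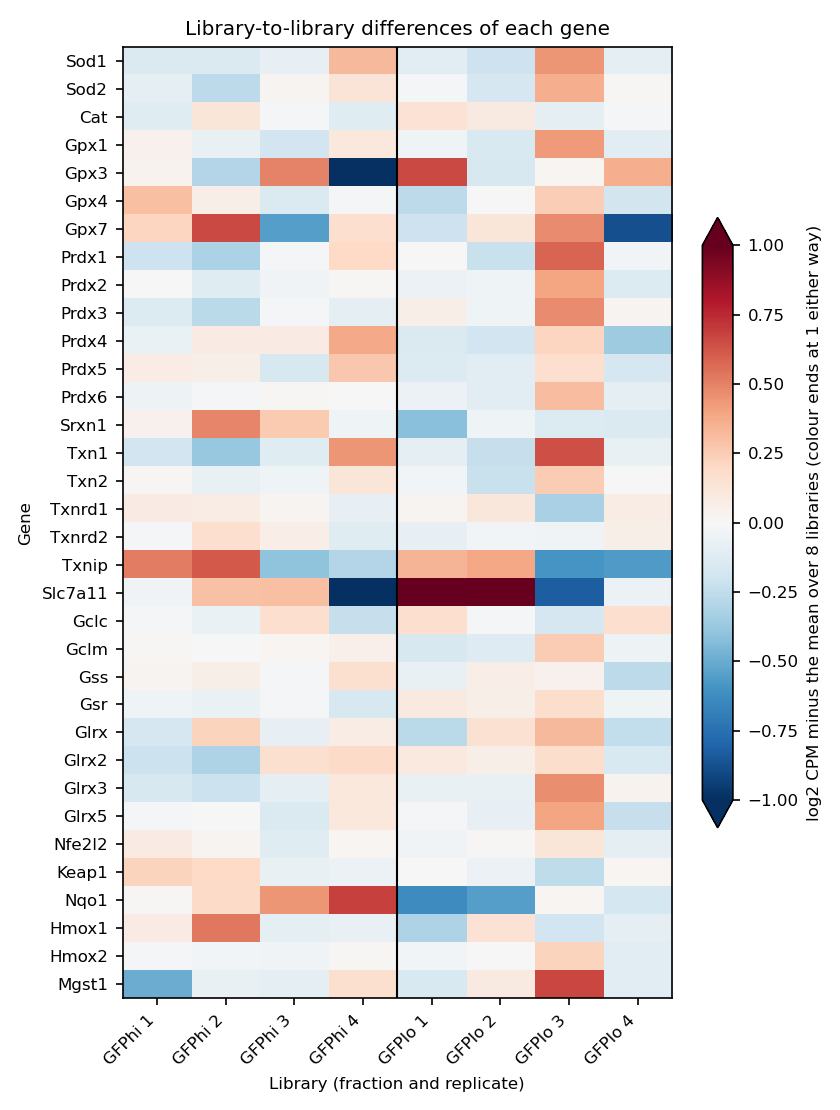
Log2 CPM minus the mean over 8 libraries (colour, ending at 1 either way) of the 34 tested antioxidant genes (rows) in each library (columns, Hdc-GFPhi left of the line). Hdc-GFPlo replicate 3 is red for most genes, being the highest library for 17, Txnip is red in replicates 1 and 2 of both fractions, and Nqo1 is red in Hdc-GFPhi replicates 2 to 4.

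**Figure D5:**
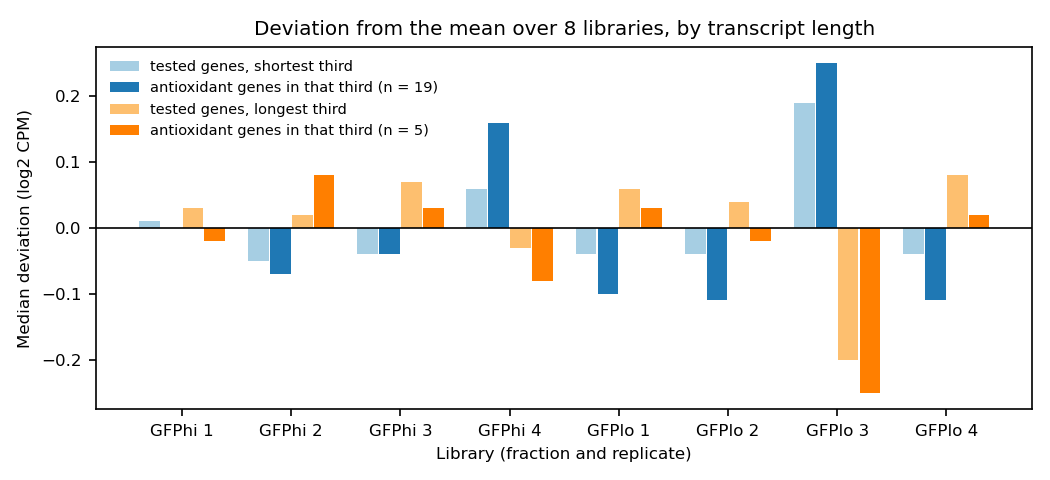
Median deviation from the mean over 8 libraries (log2 CPM, y axis) in each library (x axis), for tested genes of short and long transcripts and for the antioxidant genes among them (19 and 5). In Hdc-GFPlo replicate 3 the bars of short genes stand at 0.19 and 0.25 and those of long genes at -0.20 and -0.25, and both gene sets go the same way.

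Genes around the pathway were read from further lists, chosen with earlier results of these data known. Of 14 tested NRF2 partners and regulators, 26 glutathione transferases and turnover genes, 13 genes of NADPH supply, 13 of selenoprotein synthesis, 16 thioredoxin-fold and methionine sulfoxide reductase genes and 10 of iron storage and heme breakdown, none was called by edgeR. At an unadjusted edgeR p under 0.05 these lists had 1, 3, 0, 0, 1 and 1 genes (7.14%, 11.5%, 0%, 0%, 6.25% and 10%), beside 10.9% of all tested genes. The fractions did not overlap for 0, 2, 1, 0, 1 and 0 genes, at most 7.69% of a list, beside 6.92% of all tested genes. The genes named next are therefore no more than lists near or under the background share would hold. Mgst2, a microsomal glutathione transferase, had the lowest fold change of the transferase list. It was read at 7.89, 8.40, 6.28 and 8.74 CPM in Hdc-GFPhi and at 13.9, 15, 15.3 and 8.92 CPM in Hdc-GFPlo, with no overlap. Its log2 fold change of -0.76 ± 0.21 (-1.21 to -0.31) was not called by edgeR (adjusted p = 0.132) and was called by DESeq2 (adjusted p = 0.0227). Gstm4, a cytosolic transferase, did not overlap either, at 21.4 to 29.9 against 18.3 to 20.8 CPM (0.39, 0.07 to 0.71). Cul3, the ligase scaffold that works with Keap1, was at 203.8 to 264.6 against 262.5 to 293.9 CPM (-0.29, -0.51 to -0.07; edgeR adjusted p = 0.268). Idh1, a cytosolic source of NADPH, was read lower in every Hdc-GFPhi library, at 42.6 to 48.3 against 49.7 to 59.4 CPM (-0.23, -0.47 to 0.00), and was not called. Tfrc, the transferrin receptor that brings in iron, was at 64.5 to 117.2 against 102.2 to 152.0 CPM (-0.50, -0.91 to -0.10; edgeR adjusted p = 0.313).

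Calls were made in the lists of genes that set oxidant levels from outside the antioxidant enzymes. These lists were also chosen with earlier results of these data known, so their shares are descriptions and not tests. Of 24 tested regulators of oxidant level in stem cells 1 rose and 1 fell in Hdc-GFPhi, and 7 (29.2%) had an unadjusted edgeR p under 0.05, 1 higher and 6 lower, beside the 0.947% and 10.9% of all tested genes given above. Prdm16, a transcription factor needed for stem cell maintenance, was read at 42.8, 48.2, 48.8 and 42.7 CPM in Hdc-GFPhi and at 28.3, 35.5, 29.1 and 27.5 CPM in Hdc-GFPlo. The groups do not overlap, and it rose by 0.60 ± 0.12 on the log2 scale (0.33 to 0.87; edgeR adjusted p = 0.0403). The call is a narrow one. It was lost in 9 of 20 alternatives, among them leaving out any single library other than Hdc-GFPlo replicate 2, with adjusted p up to 0.172. Trp53inp1, a p53 target, fell to 45.6 to 63.3 CPM from 72.8 to 96.2 CPM in Hdc-GFPlo (-0.72 ± 0.13, -1.01 to -0.43; edgeR adjusted p = 0.0242). Leaving out any 1 of Hdc-GFPhi replicates 1 and 2 and of Hdc-GFPlo replicates 1, 2 and 4 ended its call, with adjusted p up to 0.106.

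Of 10 tested oxidant-producing oxidase genes 1 fell, and 5 (50%) had an unadjusted edgeR p under 0.05, all lower in Hdc-GFPhi, beside the same shares of all tested genes. The 4 of these 5 that were not called were Cybb, Ncf4, Rac2 and Xdh, with log2 fold changes of -0.51, -0.35, -0.19 and -0.54. They are named after their values were seen. The oxidase list itself was chosen with earlier results of these data known, so its share of 50% is not a test. Ncf1, the p47phox subunit of the phagocyte NADPH oxidase, was read at 66.4, 74.3, 70.5 and 69.4 CPM in Hdc-GFPhi and at 154.4, 136.4, 130.6 and 116.5 CPM in Hdc-GFPlo. The groups lie far apart, and the log2 fold change was -0.94 ± 0.11 (-1.17 to -0.71; edgeR adjusted p = 0.00117), called in all 20 alternatives. Neutrophil and granule markers had summed levels of 2102 to 2736 CPM in Hdc-GFPhi and 2523 to 3367 CPM in Hdc-GFPlo. None of the 13 was called by edgeR. At an unadjusted edgeR p under 0.05 there were 4 (30.8%), all lower in Hdc-GFPhi, beside 10.9% of all tested genes. Log2 fold changes were below 0 for 12 of these 13 markers and above 0 for 1, with a median of -0.46. The summed monocyte and lymphoid marker levels given above moved with the fractions in the same sense as Ncf1. Of the 13 monocyte and macrophage markers, however, 5 had fold changes above 0. The part of these cell types in the value of Ncf1 was not tested. The difference between Ncf1 and the antioxidant genes was itself not tested.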

How the data were processed

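Sorted cells gave 8 libraries, 4 Hdc-GFPhi and 4 Hdc-GFPlo, amplified with a SMARTer low-input kit and built with Nextera XT, per the labels' protocols. Whole-number read counts per gene symbol were deposited by the authors without normalization; bcl2fastq 1.8.4, Bowtie2, TopHat2 (version given as 2.04), HTSeq 0.6.1 and the build mm9 are named per the submitters' processing notes. Settings, annotation, strand and the treatment of reads with several matches are not stated in the sources used here, and overlapping, antisense and near-identical genes cannot be told apart. Without molecular identifiers, amplified copies of a molecule are counted separately. No coordinates of the files' build are printed.

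Genes passing edgeR's filterByExpr (13300 of 23284) were scaled by TMM and tested with edgeR 4.0.16 quasi-likelihood (robust) in R 4.3.3, with no covariate, Benjamini-Hochberg adjustment over all of them and a threshold of 0.05. "Called", "rose" and "fell" mean past that threshold. Fold changes are log2, Hdc-GFPhi over Hdc-GFPlo, ± SE with 95% intervals. Log2 CPM per library used a prior count of 2. The common biological coefficient of variation was 19.9%. Transcript lengths are medians over protein-coding transcripts of GENCODE M21, found for 94.1% of tested genes and all 36 members. Promoter windows come from RefSeq. The test was checked on simulated data.

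Members and gene lists were chosen with earlier results of these data known. All members are named, and for each further list the called genes or, with none called, up to 2 genes of lowest p could be named, besides Hdc and cell type markers. Alternatives (19 planned, 1 added later) covered scaling, filters, DESeq2 1.42.0, limma 3.58.1 voom, a replicate block, a split covariate and each library left out. Libraries of the same fraction differed beyond sampling noise in every pair (chi-square per degree of freedom at least 13.5).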

Additional observations from a re-analysis of the deposited data

Results flagged for a closer look

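In a group of 4 libraries, a value was picked out when its gap to the nearest other library took more of the group's range than Dixon's 95% limit allows. Of 98 groups of named genes examined, 10 (10.2%) met this. By chance the limit picks out about 1 in 20 independent groups. The groups here share the same libraries, and most of those picked out come from Hdc-GFPlo replicate 3, so the shares cannot be compared. In that library short transcripts lay high (0.19) and long ones low (-0.20), as given above. Among the antioxidant genes, Hdc-GFPlo replicate 3 was far above the other Hdc-GFPlo libraries for Sod1 (63.2 CPM, next 43.7), Gpx1 (2143, next 1555), Prdx2 (412.1, next 304.8), Prdx3 (211.1, next 158.6), Prdx5 (90.4, next 74.8), Prdx6 (709.5, next 550.7) and Txn1 (194.9, next 118.1). They are a superoxide dismutase, a glutathione peroxidase, peroxiredoxins and the cytosolic thioredoxin. All of them but Prdx6 are in the class of transcripts of at most 1556 bases, which lay high in that library. Sod1 was also far above the rest in Hdc-GFPhi replicate 4 (58.4 CPM, next 44.0). Outside the antioxidant genes, Sepn1, a selenoprotein of the endoplasmic reticulum, was far below in Hdc-GFPlo replicate 3 (94.2 CPM, next 135.2). Nxn, nucleoredoxin, was far above in Hdc-GFPhi replicate 2 (18.5 CPM, next 14.7).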

How the results depend on the processing

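Among 678 member values over 20 alternatives, 1 was called, Nqo1 with the split covariate, which took the members called as higher from 0 to 1. No member was called as lower under any alternative. The 126 calls over all tested genes became 404 with DESeq2, 278 with voom, 275 with the split covariate, 201 with the length and GC trend removed and 52 to 146 with 1 library left out (52 without Hdc-GFPlo replicate 1, 68 without Hdc-GFPhi replicate 3). The members' median log2 fold change of -0.03 became 0.04 with voom, 0.05 with both Hdc-GFPhi replicate 4 and Hdc-GFPlo replicate 3 left out, and -0.07 to 0.08 with 1 library left out, 0.08 being without Hdc-GFPlo replicate 3. For 16 members the sign changed in some alternative, with no call on either side, and for 18 in none. The causes were not tested. The replicate block, which treats equal numbers as pairs, gave 224 calls over all tested genes, none of them a member. Deviations of same-numbered libraries correlated at 0.26, 0.35, 0.08 and 0.10 for numbers 1 to 4. Numbers 1 and 2 correlated best with their own, whereas Hdc-GFPhi replicate 3 went with Hdc-GFPlo replicate 4 (0.21) and Hdc-GFPhi replicate 4 with Hdc-GFPlo replicate 3 (0.32), so the numbers were not taken as pairs. With 4 libraries a side, depth limits Slc7a11, Gpx3, Gpx8 and Sod3 most.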
